A study of Mus musculus with 9 samples.

Results

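The genes described here act in the unfolded protein response of the endoplasmic reticulum (ER) and in the cellular response to amino acid shortage. They are 39 of the 37980 mouse genes in the deposited table. They were chosen by name as ER chaperones, stress sensors and targets of the transcription factor ATF4. Each of the 39 symbols matched 1 Ensembl gene. They were compared between myeloid progenitors (MPs) that carried the Nup98-Hoxa10hd fusion (NA) and wild-type (WT) MPs.

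The ER folds secreted and membrane proteins, and when unfolded protein builds up, the kinase and RNase IRE1 (Ern1), the kinase PERK (Eif2ak3) and the membrane-bound factor ATF6 signal to the nucleus. IRE1 splices Xbp1 mRNA, and spliced XBP1 and cleaved ATF6 raise chaperones and genes that export misfolded proteins for degradation. PERK, and the amino acid sensor GCN2 (Eif2ak4), phosphorylate the translation factor eIF2α. This slows translation in general but favours that of Atf4 mRNA, and ATF4 raises genes of amino acid synthesis, transport and tRNA charging, while PPP1R15A brings a phosphatase that reverses the mark. Neutrophil granule proteins are made in the ER in large amounts by MPs.

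NA MPs (4 samples) were Tdtomato+ donor cells from irradiated C57BL/6 mice that had received multipotent progenitors (MPPs) of NA LSL/+; Vav-Cre mice on the C57BL/6 background, in which Cre expressed in blood cells switches the fusion on. WT MPs (5 samples) were CD45.2+ cells from irradiated C57BL/6 mice that had received WT C57BL/6 MPPs. Both kinds of recipient were adult when irradiated and also received helper bone marrow. Lin-ckit+Sca1- cells were sorted from bone marrow, by the sample labels 3 months after transplantation and by the study's methods a month later. The recipients themselves were described as CD45.2+ and other WT donor cells as CD45.1+, so WT MPs from donor, helper and recipient cells cannot be told apart, and neither text says whether a sample came from 1 mouse. The p-values therefore measure the spread between these samples, which may in part be technical.

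Total depth was 5557718, 6600722, 6048378 and 8106141 reads in NA MPs 1 to 4 and 6141707, 7751467, 6509421, 6636187 and 7086154 reads in WT MPs 1 to 5. The totals overlapped (exact two-sided permutation test, p = 0.635). Levels are given as counts scaled to a common library size by TMM (CPM). A count of 3 reads, the limit that a count of 0 allows, corresponded to between 0.370 and 0.540 CPM per sample, which covers counting error only. Sampling noise alone would give pairs of samples of a group a chi-square of about 1 per degree of freedom. It was 1.21 to 1.72 between WT MPs and 1.63 to 2.82 between NA MPs. In a principal component analysis the groups parted on the first axis, with 66.1% of the variance. NA MP 1 stood away from the other samples on the second axis, with 6.18%.

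The fusion partners followed the labels. Nup98 stood at 145, 126.5, 150.5 and 155 CPM in NA MPs 1 to 4 and 85.1, 85.5, 94.3, 94.1 and 91.0 CPM in WT MPs 1 to 5. The groups did not overlap, and the log2 fold change was 0.68 (edgeR, standard error 0.048, adjusted p = 4.83e-14). Hoxa10 stood at 23.4, 18.7, 18.2 and 17.5 CPM in NA MPs 1 to 4 and 1.13, 1.80, 0.918, 1.35 and 0.840 CPM in WT MPs 1 to 5, again without overlap, with a log2 fold change of 3.96 (edgeR, standard error 0.17, adjusted p = 8.72e-26). The table has no row for the fusion itself, so its reads cannot be told apart from those of both genes. The 10 MP markers, led by the granule enzyme Mpo, summed to 24989.7, 27419, 26917 and 25924 CPM in NA MPs 1 to 4 and 25249.9, 24829.9, 25283, 24907 and 24313 CPM in WT MPs 1 to 5, and the ranges overlapped. Of these markers 6 were called higher and 1 was called lower in NA MPs, with log2 fold changes from -0.57 to 0.20, and 4 lay above and 1 below without overlap.

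Of the 39 members, 37 passed edgeR's filter on low counts and were tested, as were 11953 genes in all. At an adjusted p under 0.05 from edgeR's quasi-likelihood test, 7 members were higher and 7 were lower in NA MPs, and 23 were not called. Of all 11953 genes tested, 34.1% were called, 17.9% higher and 16.3% lower, so the members' share in this test, 37.8%, was near that of all genes. When counts were corrected for GC content and length, 6 members were higher and 13 were lower. Of all genes tested, 35.7% were then called, 1698 higher and 2571 lower, and the members' share was above that of all genes. Without that correction the median log2 fold change was -0.02 over the tested members and 0.00 over all genes tested. With it the medians were -0.058 and -0.032, so the correction moved all genes tested downward as well as the members. Samples of the groups did not overlap for 12 members, 7 with NA MPs above and 5 with NA MPs below, beside 26.4% of all genes tested, 14.2% above and 12.2% below. Without overlap the exact two-sided permutation test can only give p = 0.0159, the smallest that 4 against 5 samples allow. That p therefore adds nothing to the count of these 12. Changes were mostly small, since 32 of the 37 tested members (86.5%) lay within 0.25 of 0 on the log2 scale, beside 76.0% of all genes tested. A call with a log2 fold change of at least 0.5 in either direction occurred in 2 members, Vldlr and Ppp1r15a, and in 9.11% of all genes tested. The untested members were Slc7a11, the cystine importer, with 4 to 15 reads a sample, and Chac1, which breaks down glutathione, with 1 to 6 reads a sample. The called members with rises were Vldlr, Ppp1r15a, Ddit3, Atf4, Syvn1, Slc3a2 and Psat1, and those with falls were Slc7a5, Dnajc3, Pdia4, Sel1l, Aars, Canx and Hsp90b1.

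**Figure D1:**
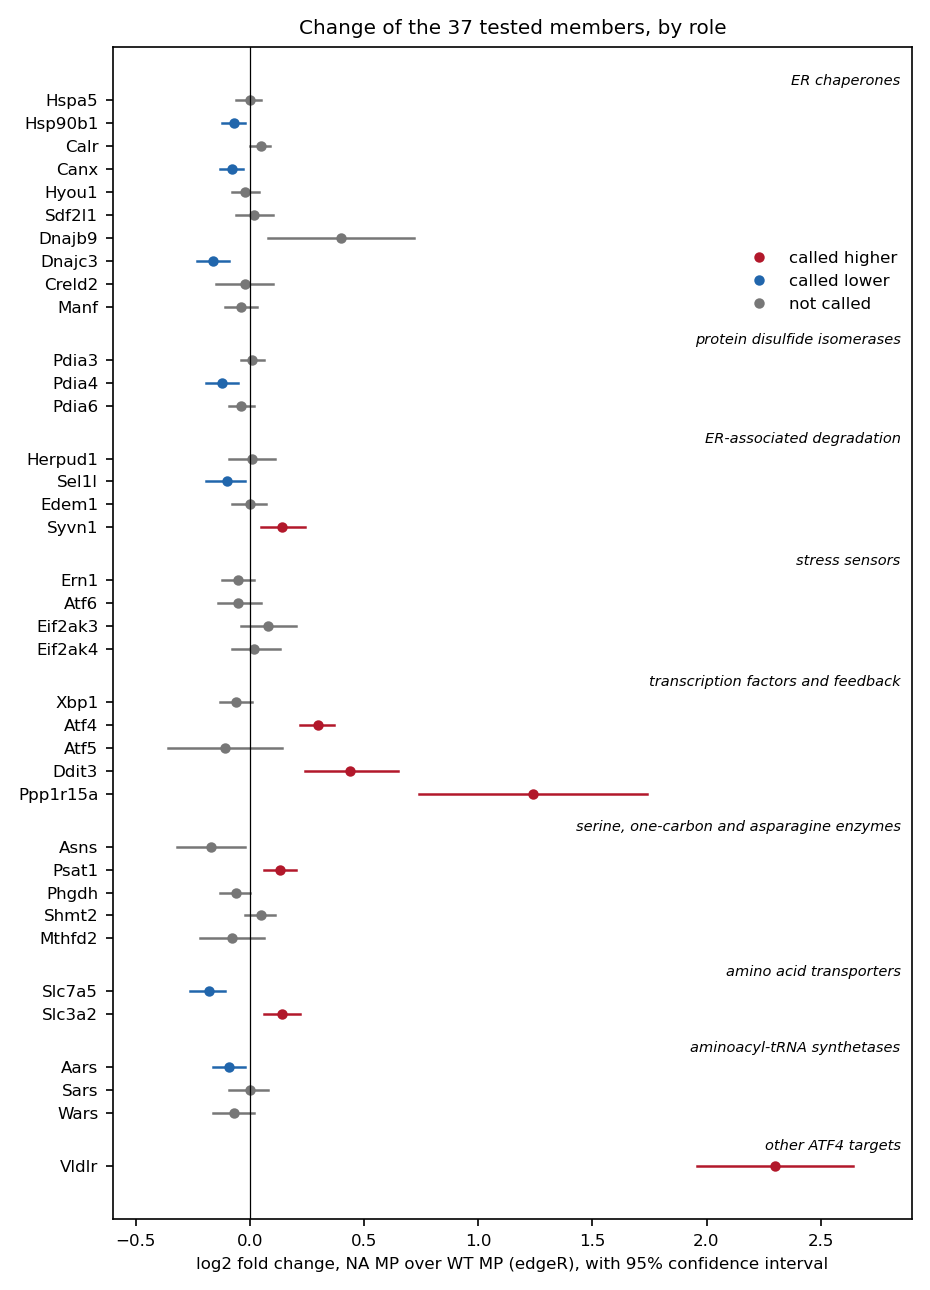
Log2 fold change of each tested member in NA MPs over WT MPs (x axis, edgeR), grouped by role, with points for estimates and lines for 95% confidence intervals. Vldlr at 2.30 and Ppp1r15a at 1.24 lie far to the right, while 32 of the 37 points lie within 0.25 of 0.

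Among the 10 ER chaperones and co-chaperones, 3 were lower in NA MPs, 0 were higher, and the median log2 fold change was -0.02. Hspa5 (BiP), the main chaperone of the ER and the usual readout of ER stress, stood at 1048, 1015.5, 1103 and 1052 CPM in NA MPs 1 to 4 and 1043, 1040.4, 1054, 1077.5 and 1074 CPM in WT MPs 1 to 5. The groups overlapped, NA MPs holding both the lowest and the highest sample, and the log2 fold change of 0.00 had a 95% confidence interval of -0.06 to 0.05. Dnajc3 (p58IPK), a co-chaperone of Hspa5 that also inhibits PERK, stood at 180.4, 176, 185.5 and 175 CPM in NA MPs 1 to 4 and 202, 198, 207, 191 and 206 CPM in WT MPs 1 to 5. Each NA MP sample was below each WT MP sample, with a log2 fold change of -0.16 (edgeR, standard error 0.035, adjusted p = 0.000151). Canx (calnexin), the membrane-bound lectin chaperone of glycoproteins, was 759 ± 16.8 CPM (SD, n = 4) against 803 ± 10.7 CPM (SD, n = 5) and Hsp90b1 (GRP94), which folds integrins and Toll-like receptors, was 1013.5 ± 33.3 CPM (SD, n = 4) against 1060.3 ± 15.2 CPM (SD, n = 5). Both fell without overlap, by 0.08 and 0.07 on the log2 scale. The call of Hsp90b1 (adjusted p = 0.0376 from edgeR) was lost under 11 of 22 alternatives. Among these were leaving out NA MP 2 or 4 or WT MP 2, 3 or 4, which gave an adjusted p of 0.0584 to 0.215 (edgeR; -0.04 on the log2 scale without NA MP 4), beside a range of 0.00474 to 0.215 over all alternatives.

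Dnajb9 (ERdj4), a co-chaperone of Hspa5 and a classic target of XBP1, had the widest change of this role. Its level was 30.1, 21.2, 32.1 and 37.3 CPM in NA MPs 1 to 4 and 20.9, 24.0, 20.8, 24.8 and 24.5 CPM in WT MPs 1 to 5. NA MP 2 lay among the WT MPs and the other NA MPs lay above them, so the groups overlapped. The log2 fold change of 0.40 (edgeR, standard error 0.14, adjusted p = 0.0559) missed the threshold. It passed under 8 of 22 alternatives, at 0.54 (adjusted p = 9.74e-07 from edgeR) without NA MP 2, and was 0.26 (adjusted p = 0.0564 from edgeR) without NA MP 4, with a range of adjusted p from 9.74e-07 to 0.133. Calr (calreticulin), the soluble partner of calnexin, stood highest per length of the members, at 963 RPKM in NA MPs and 933 RPKM in WT MPs, and was not called, with a log2 fold change of 0.05. Without NA MP 4 it was called higher, at 0.07 (adjusted p = 0.0291 from edgeR, with a range of 0.0291 to 0.923 over the alternatives). Log2 fold changes were -0.02 for Hyou1 (GRP170), the exchange factor of Hspa5, 0.02 for Sdf2l1, -0.02 for Creld2 and -0.04 for Manf, a secreted stress-induced factor, and these 4 were not called. Manf, Creld2 and Sdf2l1 were called lower when counts were corrected for GC content and length. The count of Manf is uncertain, since its exons overlap those of Dcaf1 on the opposite strand, at 88.0 CPM in NA MPs and 95.9 CPM in WT MPs. The summed level of the role was 6589, 6552, 6719.8 and 6377 CPM in NA MPs 1 to 4 and 6614, 6583, 6598, 6595 and 6562 CPM in WT MPs 1 to 5, with overlap and a ratio of 0.995.

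Of the 3 protein disulfide isomerases, which form and reshuffle disulfide bonds, 1 was lower. Pdia4 (ERp72) stood at 217, 208, 232.5 and 218 CPM in NA MPs 1 to 4 and 232, 243, 242, 237 and 236 CPM in WT MPs 1 to 5. NA MPs were lower apart from NA MP 3, which lay level with the lowest WT MP, and the log2 fold change of -0.12 (edgeR, standard error 0.033, adjusted p = 0.00322) kept its call under each of the 22 alternatives. Pdia3 (ERp57), which works with calnexin and calreticulin on glycoproteins, was 964 ± 21.5 CPM (SD, n = 4) against 959.9 ± 15.9 CPM (SD, n = 5) and Pdia6 (P5) was 583 ± 21.2 CPM (SD, n = 4) against 597 ± 6.42 CPM (SD, n = 5). Neither was called, and the log2 fold changes were 0.01 and -0.04. With the GC and length correction Pdia6 was called lower, at -0.07 (adjusted p = 0.0333 from edgeR, with a range of 0.0333 to 0.793 over the alternatives).

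Of the 4 members that act in ER-associated degradation, in which misfolded proteins are marked with ubiquitin and drawn into the cytosol, 1 was higher and 1 was lower, and they belong to the same ubiquitin ligase complex. Syvn1 (HRD1), the ligase, stood at 72.8, 79.1, 70.4 and 74.0 CPM in NA MPs 1 to 4 and 65.8, 66.3, 67.0, 68.4 and 67.9 CPM in WT MPs 1 to 5. The groups did not overlap, and the log2 fold change of 0.14 (edgeR, standard error 0.049, adjusted p = 0.0173) lost its call under 5 of 22 alternatives. It was 0.05 (adjusted p = 0.390 from edgeR) with the correction for GC content and length and 0.11 (adjusted p = 0.0997 from edgeR) without NA MP 2, and the adjusted p ranged from 0.0122 to 0.415. The exons of Syvn1 overlap those of Mrpl49 on the opposite strand, at 39.3 CPM in NA MPs and 41.6 CPM in WT MPs, so its count is uncertain. Sel1l, the adaptor of the complex, was 121.5 ± 5.95 CPM (SD, n = 4) against 130.4 ± 5.31 CPM (SD, n = 5), with overlap and a log2 fold change of -0.10 (adjusted p = 0.0418 from edgeR). Its call was lost under 11 of 22 alternatives, among them leaving out NA MP 1, 2 or 4 or WT MP 2, 3 or 4 (adjusted p of 0.0538 to 0.148 from edgeR, with a range of 0.0118 to 0.148 over all alternatives). Herpud1, which assembles the complex, and Edem1, which picks out glycoproteins for it, were not called, with log2 fold changes of 0.01 and 0.00.

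Of the 4 stress sensors 0 were called by edgeR, 0 had an unadjusted p under 0.05 there, and 0 were called under the 22 alternatives, DESeq2 included. Eif2ak3 (PERK), which had the widest change of this role, stood at 41.5, 41.6, 45.7 and 46.3 CPM in NA MPs 1 to 4 and 40.2, 41.4, 42.5, 41.2 and 42.3 CPM in WT MPs 1 to 5. The groups overlapped, with NA MPs 3 and 4 above the rest, and the log2 fold change of 0.08 (edgeR, standard error 0.061, adjusted p = 0.337) had an interval of -0.04 to 0.20. The log2 fold changes of Ern1 (IRE1), Atf6 and Eif2ak4 (GCN2) were -0.05, -0.05 and 0.02, with 95% confidence intervals of -0.12 to 0.02, -0.14 to 0.05 and -0.08 to 0.13. Gene counts show how much sensor mRNA there was, and neither the phosphorylation of the kinases nor the splicing of Xbp1 was measured.

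The transcription factors and the feedback phosphatase subunit were the role with the most rises, 3 of 5, with 0 falls and a median log2 fold change of 0.30. Their summed level was 502, 468, 561 and 538 CPM in NA MPs 1 to 4 and 427, 408.5, 421, 441 and 427 CPM in WT MPs 1 to 5. Each NA MP sum was above each WT MP sum, and the 3 calls held under each of the 22 alternatives.

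Ppp1r15a (GADD34; ENSMUSG00000040435, chr7:45522916-45526268 in GRCm38.p6, minus strand) directs protein phosphatase 1 to eIF2α and so restores translation. It stood at 88.4, 61.9, 110.5 and 111 CPM in NA MPs 1 to 4 and 30.3, 35.0, 40.7, 47.0 and 44.4 CPM in WT MPs 1 to 5. NA MPs lay above all WT MPs but spread widely, from NA MP 2, which came nearest to the WT MPs, to NA MPs 3 and 4. The mean was 93.0 ± 23.3 CPM (SD, n = 4) against 39.5 ± 6.84 CPM (SD, n = 5), a ratio of 2.36 and a log2 fold change of 1.24 (edgeR, standard error 0.21, adjusted p = 0.00305). An exon of Tulp2 lies opposite it at 0.424 CPM in NA MPs and 0.317 CPM in WT MPs. Its promoter window is shown because the member rose and because a cAMP response element (CRE, letters TGACGTCA) lies just before its start site. That motif reads the same on both strands and is bound by factors of the ATF and CREB families. The capitals mark the match in the 23 bases before the start site, chr7:45526269-45526291 (RefSeq, GRCm38.p6, minus strand), which lie between annotated genes.
Ppp1r15a: cgcctctccggTGACGTCAgcac

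Ddit3 (CHOP; ENSMUSG00000025408, chr10:127290774-127296288, plus strand), a factor of the C/EBP family linked to stress-induced cell death, stood at 16.3, 14.9, 19.0 and 19.0 CPM in NA MPs 1 to 4 and 13.9, 13.6, 12.1, 12.8 and 11.5 CPM in WT MPs 1 to 5. The lowest NA MP, sample 2, lay just above the highest WT MP. The log2 fold change of 0.44 (edgeR, standard error 0.1, adjusted p = 0.000504) held under each alternative. Its exons overlap those of Mars on the opposite strand, which was more abundant at 132 CPM in NA MPs and 141 CPM in WT MPs, and the library kit does not mark strand. The count of Ddit3 is therefore uncertain.

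Atf4 (ENSMUSG00000042406, chr15:80255184-80257541, plus strand), the factor that acts downstream of PERK and GCN2, stood at 223, 209, 246 and 226 CPM in NA MPs 1 to 4 and 189.7, 172.5, 180.3, 193 and 185 CPM in WT MPs 1 to 5. The groups did not overlap, NA MP 2 being the lowest of the NA MPs, and the log2 fold change of 0.30 (edgeR, standard error 0.038, adjusted p = 3.27e-08) corresponded to a ratio of 1.23. With the correction for GC content and length the log2 fold change was 0.19 and the call held. ATF4 is mainly set at translation, which was not measured. Xbp1, the factor made by IRE1 splicing, was 172 ± 5.33 CPM (SD, n = 4) against 179 ± 2.62 CPM (SD, n = 5) and was not called, at -0.06 on the log2 scale. It was called lower, at -0.13, with the GC and length correction (adjusted p = 0.00136 from edgeR, with a range of 0.00136 to 0.457 over the alternatives). Atf5, a close relative of Atf4, was 9.04 ± 1.07 CPM (SD, n = 4) against 9.68 ± 0.695 CPM (SD, n = 5), with overlap and a log2 fold change of -0.11 (interval -0.36 to 0.14). On the opposite strand its exons overlap those of Il4i1, at 2.83 CPM in NA MPs and 1.86 CPM in WT MPs. They also overlap those of Nup62, which has no row in the table, so the count of Atf5 is uncertain.

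**Figure D2:**
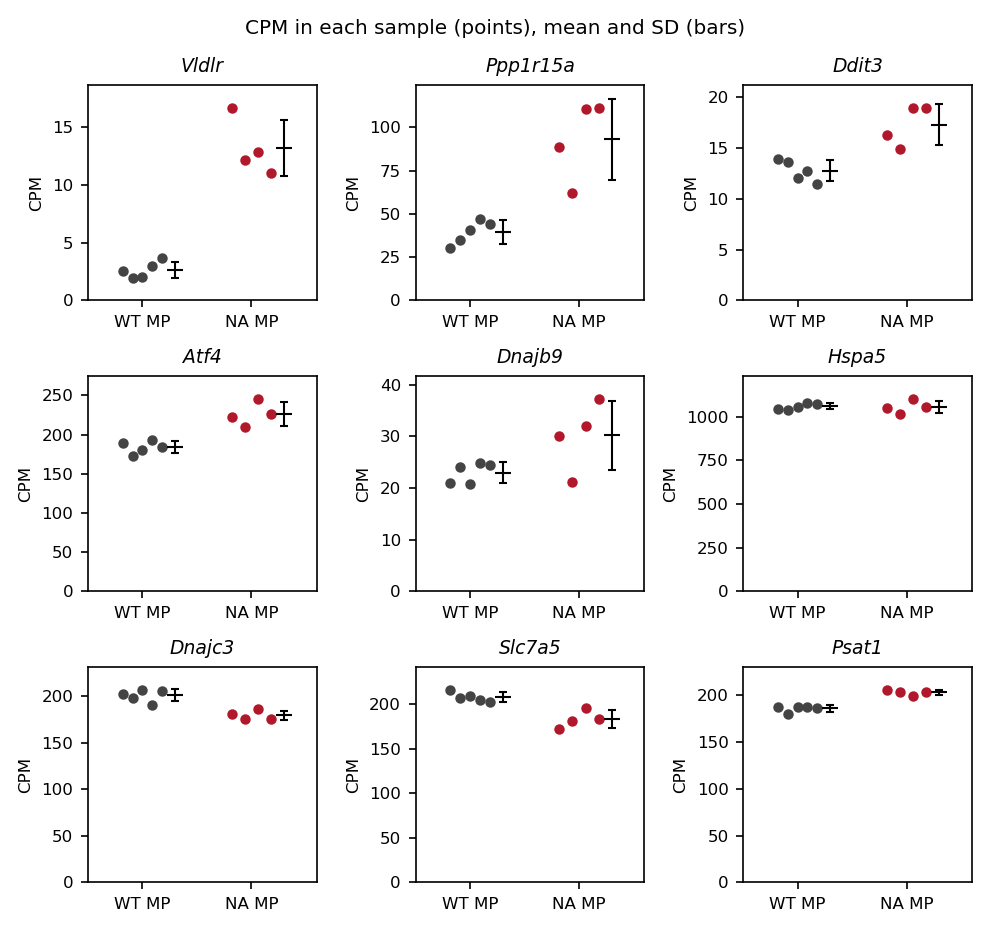
CPM of 9 members (y axes, from 0) in each WT MP sample (grey points) and NA MP sample (red points), with the mean and SD beside them. Vldlr, Ppp1r15a, Ddit3, Atf4 and Psat1 lie higher in NA MPs and Dnajc3 and Slc7a5 lower, without overlap, while Hspa5 and Dnajb9 overlap.

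Of the 5 enzymes of serine, one-carbon and asparagine synthesis, 1 was higher, 0 were lower and the median log2 fold change was -0.06. Asns, which makes asparagine and is among the best known targets of ATF4, had the widest change and stood at 49.1, 40.1, 41.9 and 47.3 CPM in NA MPs 1 to 4 and 54.8, 57.1, 47.8, 43.7 and 47.3 CPM in WT MPs 1 to 5. The groups overlapped, NA MPs 2 and 3 being lowest and WT MPs 1 and 2 highest, and the log2 fold change of -0.17 (edgeR, standard error 0.073, adjusted p = 0.0687) missed the threshold. It was called lower under 7 of 22 alternatives, among them leaving out NA MP 1 (adjusted p = 0.0247 from edgeR) or WT MP 4 (adjusted p = 0.0153 from edgeR), with a range of 0.0107 to 0.233. Psat1, the aminotransferase of serine synthesis, was 203 ± 2.65 CPM (SD, n = 4) against 185.5 ± 3.35 CPM (SD, n = 5) and rose without overlap, by 0.13 on the log2 scale (adjusted p = 0.0017 from edgeR). Phgdh, which starts the same pathway, was not called at -0.06. It was called lower at -0.18 with the GC and length correction (adjusted p = 1.61e-06 from edgeR) and at -0.10 without NA MP 2 (adjusted p = 0.0284 from edgeR), with a range of 9.66e-07 to 0.464 over the alternatives. The mitochondrial enzymes Shmt2 and Mthfd2, which move one-carbon units from serine to folate, were not called, at 0.05 and -0.08.

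The tested amino acid transporters were the 2 chains of the LAT1 exchanger, which brings in leucine and other large neutral amino acids, and they were called in opposite directions. Slc7a5, the transporting chain, stood at 172, 181, 196 and 183 CPM in NA MPs 1 to 4 and 216, 207, 209, 204.5 and 203 CPM in WT MPs 1 to 5. NA MP 3 was the highest NA MP and still lay below WT MP 5, the lowest WT MP. The log2 fold change of -0.18 (edgeR, standard error 0.036, adjusted p = 4.04e-05) held under each alternative, and was -0.28 with the GC and length correction and -0.29 with the replicate block added. Slc3a2 (4F2hc), the heavy chain that LAT1 shares with other transporters, stood at 148, 137, 149 and 152 CPM in NA MPs 1 to 4 and 137, 131, 125, 136 and 135 CPM in WT MPs 1 to 5. NA MP 2 lay level with the highest WT MP at this precision and the others above, and the log2 fold change of 0.14 (edgeR, standard error 0.039, adjusted p = 0.00317) lost its call with the GC and length correction (0.07, adjusted p = 0.140 from edgeR, with a range of 0.000601 to 0.141). Slc7a11 was near the floor at 1.19 ± 0.320 CPM in NA MPs (SD, n = 4) and 1.03 ± 0.529 CPM in WT MPs (SD, n = 5), and a difference was not detectable at this depth.

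Of the 3 cytosolic aminoacyl-tRNA synthetases among the members, which join amino acids to their tRNAs, 1 was lower. Aars, for alanine, stood at 166, 174, 170.0 and 170.0 CPM in NA MPs 1 to 4 and 184, 179.9, 181, 184 and 178 CPM in WT MPs 1 to 5. The groups did not overlap, and the log2 fold change of -0.09 (edgeR, standard error 0.034, adjusted p = 0.0308) lost its call under 6 of 22 alternatives, and was -0.15 with the GC and length correction. Among these were leaving out NA MP 1, 3 or 4 or WT MP 4, which gave an adjusted p of 0.0565 to 0.0788 (edgeR), beside a range of 0.000117 to 0.0788 over all alternatives. Exons of Aars overlap those of Exosc6 on the same strand, which has no row in the table, so the count of Aars is uncertain. Sars, for serine, and Wars, for tryptophan, were not called, with log2 fold changes of 0.00 and -0.07. Wars was called lower with the GC and length correction (-0.14, adjusted p = 0.00756 from edgeR, with a range of 0.00756 to 0.475).

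Vldlr (ENSMUSG00000024924, chr19:27216484-27254231, plus strand), a lipoprotein receptor that ATF4 can raise under ER stress, had the largest change of the tested members. It stood at 16.7, 12.2, 12.9 and 11.0 CPM in NA MPs 1 to 4 and 2.59, 1.93, 1.99, 3.01 and 3.64 CPM in WT MPs 1 to 5. Every NA MP was above every WT MP by a wide margin, and NA MP 1 was the highest. The mean was 13.2 ± 2.45 CPM (SD, n = 4) against 2.63 ± 0.719 CPM (SD, n = 5), a ratio of 5.01 and a log2 fold change of 2.30 (edgeR, standard error 0.17, adjusted p = 1.68e-16), which held under each alternative. Per length it remained among the lowest members, at 1.31 RPKM in NA MPs and 0.261 RPKM in WT MPs. Chac1, the other ATF4 target of this role, was near the floor in both groups, at 0.779 ± 0.153 CPM (SD, n = 4) and 0.578 ± 0.275 CPM (SD, n = 5), and a difference was not detectable at this depth.

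Promoter sequences of RefSeq genes (GRCm38.p6, 250 bases before to 50 bases after a start site, both strands read) were in hand for 34 of the 39 members, all but Hyou1, Manf, Atf6, Slc7a5 and Wars. The ER stress response element (ERSE, letters CCAAT, then 9 bases of any kind, then CCACG) is that through which ATF6 and XBP1 act on chaperones. It matched in 8 of the 34 members (23.5%), Hspa5, Hsp90b1, Calr, Canx, Dnajc3, Creld2, Pdia6 and Syvn1. It matched in 0.137% of all 27025 genes with a promoter in the table, and in 0.119% of 32851 promoters. The members were chosen by name as genes of this response, so their higher share is no result of these data. The shorter ERSE-II (ATTGG, 1 base of any kind, then CCACG) matched in 1 member, Herpud1, and in 0.0444% of genes, and the XBP1 motif TGACGTGG matched in 0 members and 0.714% of genes. The 5 windows below are shown because their genes hold the motif of the chaperone arm and moved little or in opposite directions in NA MPs. Capitals mark the fixed letters of the ERSE or ERSE-II, on either strand.
Calr: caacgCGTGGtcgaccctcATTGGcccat
Canx: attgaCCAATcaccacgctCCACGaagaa
Dnajc3: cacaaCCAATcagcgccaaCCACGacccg
Syvn1: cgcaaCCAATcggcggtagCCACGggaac
Herpud1, ERSE-II: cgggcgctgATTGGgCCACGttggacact

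These windows lie at chr8:84847070-84847098 (minus strand), chr11:50325795-50325823 (minus strand), chr14:118937822-118937850 (plus strand), chr19:6046527-6046555 (plus strand) and chr8:94386368-94386396 (plus strand). The last lies in an intron of Gm15890, which runs on the opposite strand, and the others lie between genes annotated in GENCODE M21. Of the 8 members with the ERSE, 3 were called lower (Dnajc3, Canx and Hsp90b1), 1 was called higher (Syvn1) and 4 were not called, with log2 fold changes from -0.16 to 0.14.

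The C/EBP-ATF response element (CARE, letters TGATGNAA), through which ATF4 acts with C/EBP factors, matched in 6 of the 34 members (17.6%), Vldlr, Asns, Aars, Herpud1, Chac1 and Slc7a11, and in 4.51% of the 27025 genes. The 2 windows below compare the member that rose most with one that did not pass the threshold, and the capitals mark the fixed letters of the CARE, read here on the minus strand of each gene.
Vldlr: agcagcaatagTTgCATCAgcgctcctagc
Herpud1, CARE: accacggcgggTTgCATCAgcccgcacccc

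The Vldlr window, at chr19:27216809-27216838 (plus strand), belongs to 1 of its start sites, 211 to 182 bases before it, and falls in a noncoding exon of another Vldlr transcript. The Herpud1 window lies at chr8:94386306-94386335 (plus strand) in the same intron of Gm15890. Of the 4 tested members with a CARE, Vldlr was higher (2.30), Aars was lower (-0.09), and Asns (-0.17) and Herpud1 (0.01) were not called. The CRE shown above matched in 1 of the 34 members (2.94%) and in 2.03% of genes, and the AP-1 motif TGANTCA in 4 members (11.8%), Ddit3, Eif2ak3, Hspa5 and Sel1l, and in 8.97% of genes. As for the ERSE, the members' higher share of CARE matches is no result of these data, since ATF4 targets were chosen by name. A match is a run of letters in the window, and binding was not measured.

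**Figure D3:**
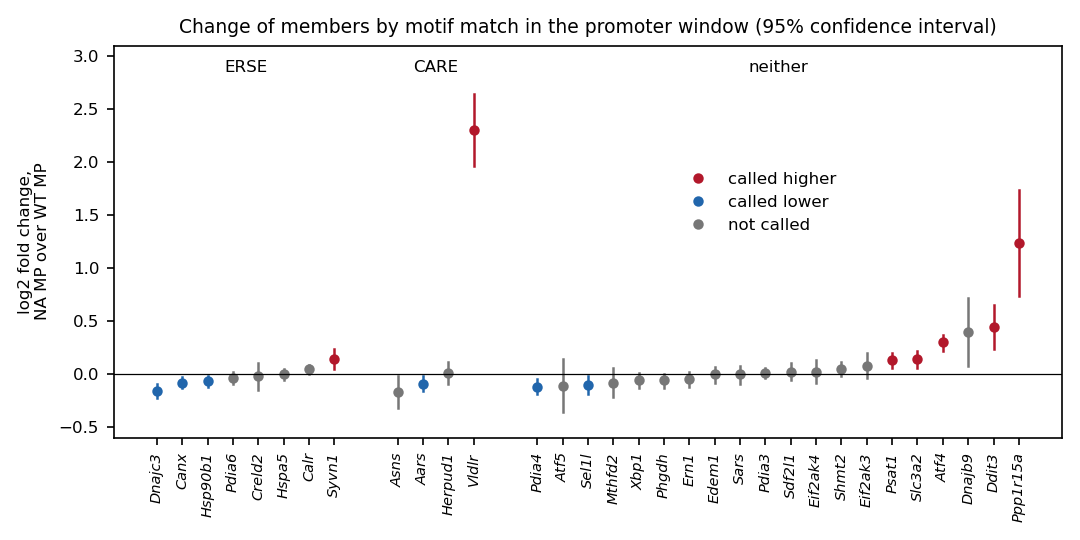
Log2 fold change in NA MPs over WT MPs (y axis, edgeR, with 95% confidence intervals) of the tested members with a promoter in the table, grouped by a match to the ERSE, to the CARE (Herpud1, which also has an ERSE-II, is placed here) or to neither. Members with the ERSE lie between -0.16 and 0.14, and Vldlr stands alone among those with the CARE.

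Other genes of the pathway were listed by function. Of 23 other ER folding genes 4 were higher and 1 was lower (median log2 fold change 0.02), led by Dnajc10 (ERdj5), a reductase that prepares misfolded proteins for export, at 217 ± 4.47 CPM (SD, n = 4) against 169 ± 4.83 CPM (SD, n = 5) and 0.36 on the log2 scale (adjusted p = 9.1e-13 from edgeR). The summed level of this list was 4601.5, 4641, 4743 and 4592 CPM in NA MPs 1 to 4 and 4438, 4532, 4533, 4534 and 4426 CPM in WT MPs 1 to 5, with each NA MP above each WT MP and a ratio of means of 1.03, while its median was -0.02 with the GC and length correction. Of 20 other genes of ER-associated degradation 3 were higher and 1 was lower (median -0.02), with Erlec1 at 0.26, Os9 at 0.18, both lectins that read trimmed glycans, and the ubiquitin-conjugating enzyme Ube2j1 at -0.19. Of 27 genes of translocation into the ER and N-glycosylation 5 were higher and 4 lower (median -0.02), with the signal peptidase subunit Sec11c at 0.21 and the oligosaccharyltransferase subunits Rpn1 at 0.17 and Stt3b at -0.14. The correction for GC content and length turned the balance of the first and second of these lists to 2 higher and 4 lower and to 1 higher and 5 lower, and of the last to 2 higher and 5 lower. With a sample left out, falls numbered 2 in the first list without NA MP 3 or WT MP 1, 2 in the second without NA MP 2 or WT MP 1 and 2 in the last without NA MP 2. With that correction 39.8% of the calls over all genes were higher in NA MPs, against 52.3% without it, and 35.7% of all genes tested were called. Of the 37 tested members 6 were then higher and 13 were lower, a larger share than that of all genes.

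Of 25 tested stress sensors and regulators beyond the members, 4 were higher and 2 were lower (median -0.01). With the GC and length correction 3 were higher and 6 were lower (median -0.08). Ddit4 (REDD1), an inhibitor of mTORC1 and a target of ATF4, stood at 13.6, 8.38, 16.1 and 12.1 CPM in NA MPs 1 to 4 and 5.35, 5.91, 4.44, 5.41 and 5.60 CPM in WT MPs 1 to 5. NA MPs lay above WT MPs without overlap, with a log2 fold change of 1.21 (edgeR, standard error 0.15, adjusted p = 6.87e-09). Nupr1, a stress-induced chromatin protein, and Gadd45a, a growth arrest gene, rose by 0.95 and 0.43 on the log2 scale with overlapping ranges, and Nfe2l2 (NRF2), the regulator of antioxidant genes, was lower at -0.23. Atf3, a repressor induced through ATF4 and by mitogens, did not pass the filter and is named after its values were seen. It had 4, 16, 88 and 93 reads in NA MPs 1 to 4 and 0, 0, 0, 2 and 0 reads in WT MPs 1 to 5. NA MPs 3 and 4 held most of the reads. Trib3, a pseudokinase target of ATF4 and CHOP that is also named after its values were seen, had 6 reads in NA MPs and 18 in WT MPs together. Of the genes of the pathway and stress lists that the filter left out, those called with no filter were Atf3 (adjusted p = 0.0235 from edgeR), the cytokine Gdf15 with 23 reads in NA MPs and 9 in WT MPs (0.0179), the cysteine enzyme Cth with 1 and 18 reads (0.00481), Hspa1a with 35 and 7 reads (1.61e-05) and the immediate early genes Egr2 with 60 and 13 reads (1.69e-08) and Egr3 with 20 and 1 reads (4.73e-05). These were named after their values were seen, and Trib3 was not called (0.256).

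Among the members of the amino acid roles 2 were called higher (Psat1 and Slc3a2) and 2 lower (Slc7a5 and Aars). Of 20 other tested enzymes and transporters of amino acids 2 were higher and 9 were lower (median log2 fold change -0.10), beside 17.9% and 16.3% of all genes tested. The folate enzyme Mthfd1 was 191 ± 9.34 CPM (SD, n = 4) against 273 ± 13.2 CPM (SD, n = 5), at -0.51 on the log2 scale (adjusted p = 1.12e-16 from edgeR). Also lower were the leucine carrier Slc43a1 at -0.41 and the aspartate aminotransferase Got1 at -0.22, while the proline enzyme Pycr1 was higher at 0.46. Of 20 other cytosolic synthetases and their cofactors 2 were higher and 8 were lower (median -0.10), with Iars at -0.27, Cars at -0.21, Gars at -0.21 and Hars at -0.20. Of 17 mitochondrial synthetases, which serve another compartment, 0 were higher and 4 were lower (median -0.09), among them Mars2 at -0.48, and without NA MP 3 the falls numbered 2. The cytosolic list summed to 3078, 3002, 3079.9 and 3023 CPM in NA MPs 1 to 4 and 3196, 3202, 3132, 3162 and 3151 CPM in WT MPs 1 to 5, and NA MPs lay below WT MPs without overlap. Over the 22 alternatives the falls numbered 5 to 11 in the amino acid list and 5 to 11 in the cytosolic list (5 without NA MP 2), and 2 to 5 in the mitochondrial list. Rises numbered 1 to 2 in the amino acid and cytosolic lists, with 1 in the former without NA MP 2 or 4 and 1 in the latter without WT MP 3.

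**Figure D4:**
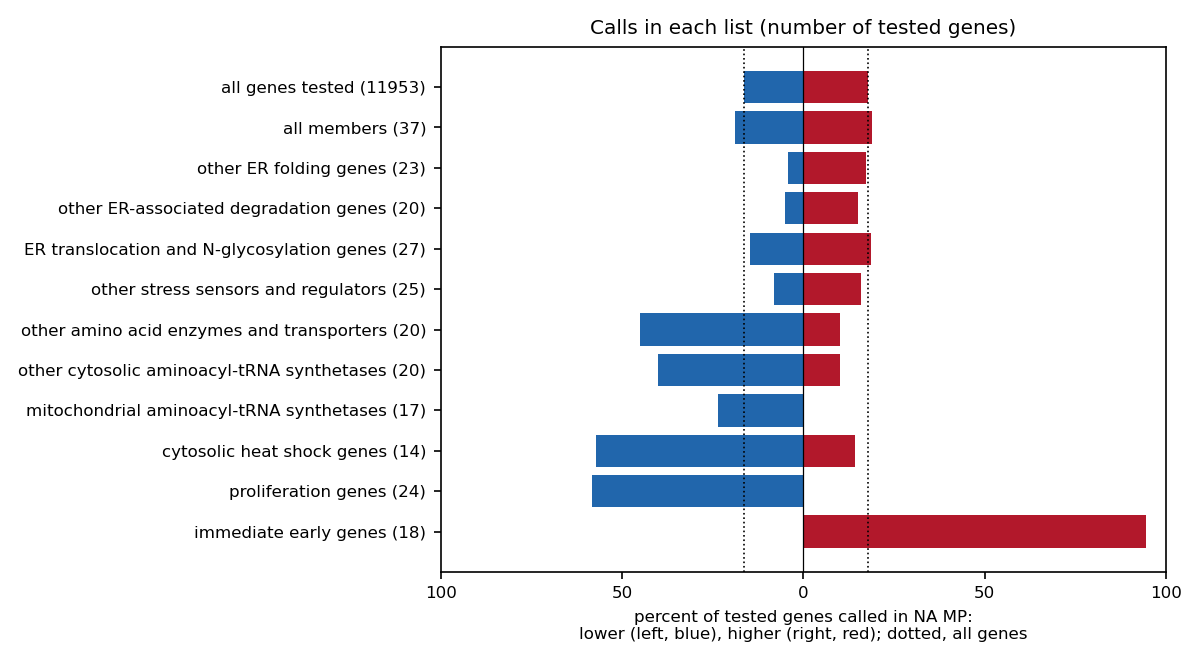
Percent of the tested genes of each list called lower (left, blue) or higher (right, red) in NA MPs (x axis), with the number of tested genes in brackets and dotted lines at the shares of all genes tested, 16.3% and 17.9%. The members lie near both lines, the amino acid, synthetase, heat shock and proliferation lists extend to the left, and 17 of 18 immediate early genes were called higher. Shares are without the correction for GC content and length, with which 13 of 37 members and 2571 of 11953 genes were called lower.

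The heat shock list held chaperones of the cytosol and mitochondria and the heat shock factors Hsf1 and Hsf2, which were not called. Of 14 tested genes 2 were higher and 8 were lower (median -0.12, and -0.14 to -0.10 over the 22 alternatives). The Hsp70 exchange factor Hsph1 was 74.8 ± 4.93 CPM (SD, n = 4) against 111 ± 3.98 CPM (SD, n = 5), lower by a log2 fold change of -0.58 (edgeR, standard error 0.046, adjusted p = 4.8e-15), and the mitochondrial chaperonin genes Hspd1 and Hspe1 were both at -0.26. The inducible Hsp70 gene Hspa1b was 1 of the 2 called higher, with 73 reads in NA MPs and 19 in WT MPs, near the floor, so no fold is given. Where 10 or more counts in all samples were asked for, 13 genes were tested and 1 was higher. Hspa1b has a near-identical copy, Hspa1a, with which reads may be shared, so its count is uncertain. Of 24 proliferation genes 0 were higher and 14 were lower (median -0.12), led by Mki67 at -0.43, and their sums were 6179.7, 6481.5, 6589 and 6465 CPM in NA MPs 1 to 4 and 7058, 7148, 6986, 6987 and 6970.4 CPM in WT MPs 1 to 5. NA MPs lay below WT MPs in that sum, as they did for Slc7a5, Dnajc3, Aars, Canx and Hsp90b1, and the part of proliferation in those falls was not tested.

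Immediate early genes, which respond within minutes to mitogens, stress and handling of cells, were listed as well. Of 18 tested, 17 were higher and 0 were lower (median log2 fold change 2.11), the most abundant was Jun, and the largest changes were those of Fosb (4.30), Klf2 (3.33), Nr4a1 (3.14) and Dusp1 (2.92). They summed to 3075, 2130.0, 4331 and 4644 CPM in NA MPs 1 to 4 and 488, 618, 744, 999.6 and 788 CPM in WT MPs 1 to 5. NA MPs lay above WT MPs, NA MP 2 lowest of its group and NA MPs 3 and 4 highest. Ppp1r15a put all 9 samples in the same order as this sum, in WT MPs as well as NA MPs, and 12 of the 11953 genes tested did so, Ppp1r15a included, 4 of them outside the list. Ddit3, Atf4 and Slc3a2 also had NA MPs 3 and 4 as their highest samples, as did Dnajb9 and Eif2ak3, which were not called, and Atf3. The other called rises of members did not. Vldlr was highest in NA MP 1 and lowest of the NA MPs in NA MP 4, Syvn1 was highest in NA MP 2 and Psat1 in NA MP 1, and both of these were lowest of the NA MPs in NA MP 3. The part of the immediate early response in the rises of Ppp1r15a, Ddit3 and Atf4 was not tested.

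**Figure D5:**
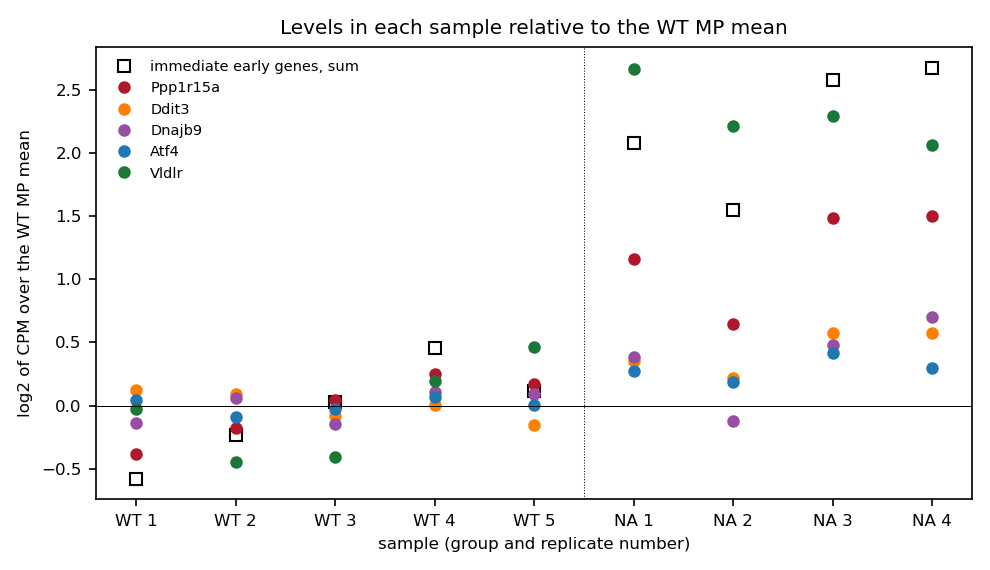
Log2 of CPM over the WT MP mean (y axis) in each sample (x axis) for the summed immediate early genes (open squares) and 5 members (points). Ppp1r15a follows the squares in order across the samples, from NA MP 2 up to NA MP 4, and Vldlr does not.

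Markers of other cells also differed between the groups. The lineage antibodies of the sort (Ter119, B220, Gr1, Mac1 and those to T cell antigens) and the choice of Sca1- cells should remove mature blood cells, erythroid and B cells that carry these antigens, T cells and Sca1+ stem cells. In bulk samples fewer cells of a type and less RNA per cell cannot be told apart. Pro-B and pre-B markers were higher for 14 of 14 tested genes, led by Dntt, and summed to 235, 417, 418 and 317 CPM in NA MPs 1 to 4 and 60.5, 65.0, 62.9, 59.2 and 62.3 CPM in WT MPs 1 to 5. NA MPs lay far above WT MPs, NA MP 1 being the lowest of them. Of 11 plasma cell markers only 5 were tested, with 4 higher and 1 lower. The list, led by Ighm with Iglc2 at 0, summed to 155, 223, 229 and 184 CPM in NA MPs 1 to 4 and 141, 138, 127, 136 and 128 CPM in WT MPs 1 to 5. Of 8 T and NK cell markers only 2 were tested, and both were higher. The list, led by Nkg7 with Cd3e and Cd3g at 0, summed to 308.5, 299, 317 and 296 CPM in NA MPs 1 to 4 and 252, 271.5, 274, 269.7 and 259 CPM in WT MPs 1 to 5. Both sums were above those of WT MPs in every NA MP sample. With so few markers tested, neither list shows that such cells were more numerous.

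Erythroid markers were lower for 13 and higher for 0 of 15 tested genes, led by Car1, and summed to 1164.5, 975, 1041 and 1228.5 CPM in NA MPs 1 to 4 and 2003, 2007, 1847, 1821 and 1886 CPM in WT MPs 1 to 5. Eosinophil markers were lower for 4 and higher for 1 of 7, led by Prg2, and summed to 77.7, 171, 132 and 104 CPM in NA MPs 1 to 4 and 244.5, 227, 233, 215 and 192 CPM in WT MPs 1 to 5. In both lists each NA MP lay below each WT MP. Mast cell and basophil markers were higher for 6 and lower for 2 of 9, led by Hdc, and summed to 688, 629.8, 624 and 601 CPM in NA MPs 1 to 4 and 476, 471, 468, 457 and 437 CPM in WT MPs 1 to 5. Markers of Sca1+ stem cells were higher for 3 of 4, led by Hlf, and summed to 69.0, 58.8, 56.8 and 61.5 CPM in NA MPs 1 to 4 and 26.3, 26.3, 26.0, 29.3 and 26.7 CPM in WT MPs 1 to 5. Both were above WT MPs without overlap. Neutrophil markers were higher for 4 and lower for 2 of 10 tested genes, monocyte, macrophage and dendritic cell markers for 7 and 2 of 12, and megakaryocyte markers for 1 and 3 of 8. Sums of neutrophil markers (led by S100a8, 655 to 1001 CPM in NA MPs and 591 to 672 CPM in WT MPs), of monocyte, macrophage and dendritic cell markers (led by F13a1, 1461 to 1746 CPM and 1423 to 1495 CPM) and of megakaryocyte markers (led by Itga2b, 241 to 277 CPM and 254 to 277 CPM) overlapped. The part of these cells in the members' changes was not tested.

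The members varied more among NA MPs than among WT MPs, but so did genes in general. The chi-square per degree of freedom between samples was 1.63 to 2.82 in NA MPs and 1.21 to 1.72 in WT MPs. The shares that follow were not matched for level, so the larger share of the members cannot be called particular to them. The coefficient of variation was larger in NA MPs for 31 of the 37 tested members (83.8%), beside 55.9% of 11949 tested genes with a count in both groups, and its median over the members was 4.90% in NA MPs and 2.62% in WT MPs, against 6.93% and 6.37% over those genes. Per length the WT MP levels ran from 0.0737 RPKM for Slc7a11 and 0.261 RPKM for Vldlr to 250.1 RPKM for Hspa5, 263 RPKM for Hsp90b1, 306 RPKM for Pdia3 and 933 RPKM for Calr, so the most abundant members were ER chaperones and isomerases. The largest changes were those of Vldlr and Ppp1r15a, at 0.261 and 13.4 RPKM in WT MPs.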

How the data were processed

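Polyadenylated RNA of 4 NA MP and 5 WT MP samples was made into libraries with a kit that does not mark strand. The submitters' processing notes name bcl2fastq, RSEM, DESeq2 and the build mm10, and the versions and the annotation are not given in the sources used here. The authors deposited an expected count per gene from RSEM, in a table named as raw counts. Its values were not raw. In each column 97.3% to 97.7% of the values were whole multiples, within 0.02 of a read, of a value that differed between samples from 0.8266 to 1.2004, and that value times the DESeq2 size factor of the sample was 0.9994 to 1.0024, as for expected counts divided by DESeq2 size factors. Each column was therefore divided by its value for 1 read, and the recovered expected counts were rounded. The totals as deposited, 6602851 to 6734284, do not give the depth.

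The test was that of edgeR 4.0.16 in R 4.3.3 after TMM normalization, with filterByExpr (minimum count 10), the robust quasi-likelihood fit and Benjamini-Hochberg adjustment over 11953 genes at 0.05, and it was first tested on simulated data. RPKM values are CPM per kilobase of exon. Single values were compared by an exact two-sided permutation test over 126 ways to choose 4 of 9 samples. Alternatives were RLE or library size scaling, no filter, 10 or more counts in all samples, DESeq2 1.42.0, no robust option, adjusted p under 0.01, the replicate number as a block, a correction for GC content and length (mgcv 1.9.3, values for 100% of the members), the last 2 together, unrounded counts and each sample left out. Chosen after seeing the data were the deposited values used as counts, and limma 3.58.1 on log2 of the deposited values plus 1. Symbols matched 32916 genes. Coordinates and overlaps came from GENCODE M21 (GRCm38.p6) and promoters from RefSeq.

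Named with the value in every sample were members called with an absolute log2 fold change of at least 0.5 or with the largest of their role, and others (Hspa5, Dnajc3, Ddit3, Atf4, Slc3a2, Ddit4 and Atf3) were chosen after their values were seen. Of each other list at most 4 called genes with the largest changes were named, apart from Trib3, Hsf1, Hsf2 and the genes called with no filter. The members and lists were chosen with earlier results of these data known.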

Additional observations from a re-analysis of the deposited data

Results flagged for a closer look

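Psat1 in WT MP 2 lay apart from its group at 179.5 CPM, while the other WT MPs lay between 186.4 and 187.5 CPM, and the gap to the nearest sample took up most of the range of the group. Of 78 groups of values checked in this way, each member in NA MPs and in WT MPs, 1 held such a sample, where chance gives about 1 in 20, or 3.9. Without WT MP 2 the call of Psat1 held.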

How the results depend on the processing

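Of the 14 called members, 9 kept direction and call under each of 22 alternatives (Vldlr, Ppp1r15a, Ddit3, Atf4, Psat1, Slc7a5, Dnajc3, Pdia4 and Canx), and the other 5 kept direction and lost the call under some. Of 814 values of members under alternatives, 706 kept direction and side of the threshold, 35 lost the call, 28 gained one in the same direction, and 45, of uncalled members, changed sign, of which 2, those of Sdf2l1 with the GC and length correction, were also called. Members called lower numbered 7, but 4 at an adjusted p under 0.01, 13 with the GC and length correction, 12 with that and the replicate block, and 4 to 7 with a sample left out, while members called higher numbered 6 to 8. Sign changes of log2 fold changes, 0.00 where small, were as follows. With library size only, Sdf2l1 was 0.00, Pdia3 -0.01 and Herpud1 -0.01. Pdia3 was 0.00 with no filter, with DESeq2 and with limma, as was Herpud1 with limma, and Sars was 0.00 with 10 or more counts in all samples and with the deposited values used as counts. With the replicate block Hspa5 was 0.00 and Herpud1 -0.02. With the GC and length correction, alone and with the block, values were 0.00 and -0.01 for Calr, -0.13 and -0.12 for Sdf2l1, -0.02 and -0.02 for Pdia3, -0.08 and -0.10 for Herpud1, 0.01 and 0.01 for Edem1 and -0.07 and -0.06 for Shmt2. With a sample left out, values ran from -0.03 to 0.01 for Hspa5, -0.05 to 0.01 for Hyou1, -0.03 to 0.04 for Sdf2l1, -0.09 to 0.05 for Creld2, 0.00 to 0.02 for Pdia3, -0.04 to 0.05 for Herpud1, -0.02 to 0.01 for Edem1, -0.01 to 0.05 for Eif2ak4 and -0.03 to 0.03 for Sars. The cause was not tested. The replicate block gave 3741 calls over all genes, with 8 members higher and 7 lower, but samples that share a number in both groups did not resemble each other (correlations of 0.01, 0.01, -0.02 and 0.05 for numbers 1 to 4), and 0 samples were closest to that with their own number. With the GC and length correction 39.8% of all calls were higher in NA MPs, against 52.3% without it. The share of all genes tested that was called was 35.7% with that correction and 34.1% without it. At this depth edgeR's filter left out Slc7a11 and Chac1, which with no filter had log2 fold changes of 0.14 and 0.38 (adjusted p = 0.865 and 0.636 from edgeR) and were not called.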
